A study of Mus musculus with 4 samples.

Results

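Germline and meiosis genes are a panel of 47 genes whose products act in germ cells, chosen by name with earlier results of these data known. Of these, 44 had a probe set annotated to that gene alone and were compared, out of 18820 genes compared on the arrays. The other members (Fkbp6, Syce3 and Zcwpw1) were not analysed here; Zcwpw1 shared its probe set with Pilra. Total RNA came from 2 samples of mouse embryonic stem cells labelled KAP_KO, of KAP1 fl/fl genotype and named a knockout in the labels, and from 2 labelled KAP_WT, of wild-type genotype. Each sample was read on 1 Affymetrix Mouse Gene ST array. KAP1 is the protein of Trim28, a scaffold of gene repression recruited to DNA by KRAB zinc finger proteins. All 4 samples carry the label of 4-hydroxytamoxifen, which activates inducible Cre enzymes, and the protocol gives 24 h with it or with vehicle and then 48 h without. All cells grew on irradiated mouse embryonic fibroblasts. The labels name neither the Cre driver nor the line or clone behind each genotype, so a difference between lines and the loss of Trim28 cannot be told apart. The series asks which differentiation and pluripotency genes depend on Trim28 and the Polycomb protein Rnf2. Values are log2 expression after RMA, and changes are the mean of KAP_KO minus the mean of KAP_WT on that scale.

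Germ cells carry out meiosis and keep transposons silent, and they use proteins that most other cells do not make. The piRNA pathway loads small RNAs onto Piwi proteins, largely in cytoplasmic granules called nuage, and directs the silencing of transposons. The synaptonemal complex and meiotic cohesins hold homologous and sister chromosomes together while recombination proceeds. In embryonic stem cells many promoters of such genes are held down by DNA methylation and by a variant Polycomb complex that contains E2f6, Mga, Max and Pcgf6, yet some germline genes are transcribed there.

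The knockout check and the state of the cultures bear on every value below. Trim28 read 8.97 and 8.92 in KAP_KO samples, against 11.29 and 11.37 in KAP_WT samples (change -2.38, adjusted p = 3.39e-05). Medians over all probe sets lay between 4.75 and 4.77 on the 4 arrays, and r over all probe sets was 0.995 between the KAP_KO arrays, 0.994 between the KAP_WT arrays and 0.974 to 0.976 across genotypes. Of 18820 genes tested 14.2% rose and 12.7% fell. Of 12 embryonic stem cell markers 7 fell and 1 rose (1 fell and 0 rose without KAP_WT replicate 1, and likewise without KAP_WT replicate 2), with mean levels of 9.97 and 9.72 in KAP_KO samples, against 10.30 and 10.29 in KAP_WT samples. Of 20 fibroblast markers 15 rose and 0 fell, with mean levels of 6.23 and 6.24 in KAP_KO samples, against 5.14 and 4.82 in KAP_WT samples. The median change of that list was 1.01, and its largest rises were of the contractile genes Acta2 (4.65) and Tagln (4.61). Acta2 read 10.27 and 10.46 in KAP_KO samples, against 6.78 and 4.64 in KAP_WT samples, which lay far apart. In bulk RNA, fewer cells of a type and less RNA per cell cannot be told apart, and the part of these markers in the germline values was not tested.

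Of 44 measured genes 11 fell and 4 rose in the Trim28 knockout, and 29 did not pass the test. Thus 25% of them were lower, against 12.7% of all genes tested, and 9.09% were higher, against 14.2% of all genes tested. The panel was chosen with earlier results of these data known, so the shares in this paragraph are descriptions and not a test. With each array's median over tested genes subtracted, which moves every change by -0.17, the share of falls was close to that of all genes: 15 of the 44 were lower (34.1%), against 6392 of all genes (34.0%), and 2 were higher, against 2065 of all genes. As deposited, 34.1% of the panel passed in either direction, against 26.9% of all genes. At a change of at least 2-fold, 5 genes fell (Stra8, Mael, Piwil4, Tex14 and Tex19.1), or 11.4% against 1.46% of all genes, and 1 rose (Cpeb1), or 2.27% against 4.44%. The median change was -0.034 over the panel and -0.053 over all genes tested. The groups did not overlap for 27 of the 44 genes (61.4%, against 65.2% of all genes). Calls come from limma over all 18820 genes at an adjusted p of 0.05. An exact permutation test of 2 arrays against 2 cannot go below p = 0.333.

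**Figure D1:**
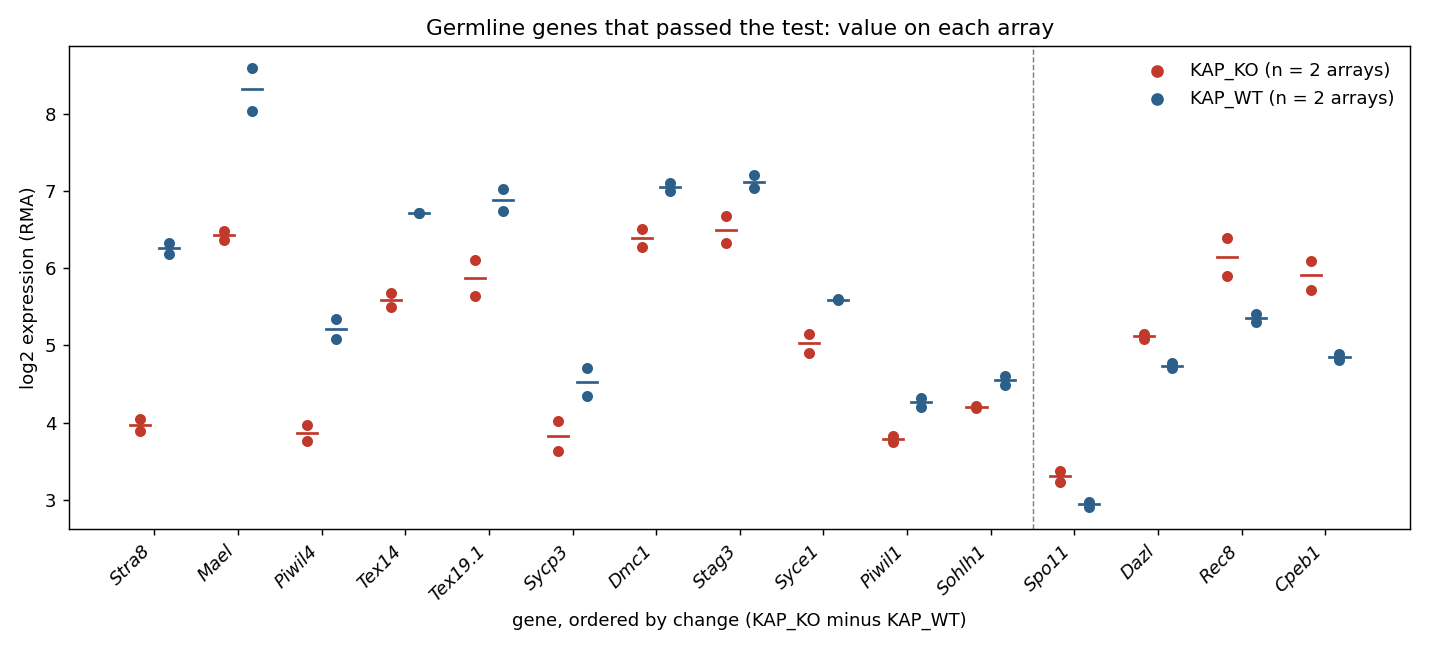
Log2 expression on each array for the 15 germline genes that passed the test, KAP_KO in red and KAP_WT in blue, with a bar at each group mean (n = 2 arrays per group). Genes left of the dashed line were lower in KAP_KO, from Stra8 with a change of -2.28, and the 4 right of it were higher, up to Cpeb1 with 1.06.

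Promoter letters were searched for motifs picked because they are known from germline genes, so the shares below describe the panel and are not a test. RefSeq windows of 300 bases (250 before to 50 after an annotated gene start, GRCm38.p6) were found for 42 of the 47 genes, 51 windows in all. The letters CACGTG, the E-box bound by Mga with Max and by other bHLH factors, stood in 21 of the 51 windows (41.2%), against 2349 of 32851 windows of all genes (7.15%). The letters GCGGGAA, an E2F core searched on both strands, stood in 11 of the 51 windows (21.6%), against 4.60% of all windows. Windows of genes tested on the array held CACGTG in 8.31% and GCGGGAA in 6.42%. The median number of CpG was 17 in the panel's windows, against 15 in windows of genes tested on the array and 7 in all windows. Among windows with at least 10 CpG, a limit chosen after the values were seen, CACGTG stood in 48.8% of 43 panel windows, against 10.9% of 14281, and GCGGGAA in 25.6%, against 9.20%. Some genes have several overlapping windows; by gene, 17 of 42 panel genes had CACGTG, against 2187 of 27025 genes in all.

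The E-box was spread over genes that changed and genes that did not. It stood in 5 of the 11 genes that fell, in 1 of the 3 with a window that rose, and in 10 of the 25 with a window that did not pass. By role it stood in 8 of 11 piRNA pathway genes, 4 of 13 meiotic chromosome genes, 4 of 10 germ-cell regulators and 1 of 8 other germ-cell genes. A match is a description of letters and not evidence of binding, which these arrays did not measure.

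The windows of 6 genes are shown because they cover the range of responses and of motif content. Each is 5′ to 3′ on the gene's strand, in lower case, with both motifs in capitals; the motifs overlap each other in none of them. The windows of Stra8, Cpeb1 and Ddx4 lie inside the outer bounds of those genes, so the outermost start was not searched. Stra8 (chr6:34920698-34920997, plus strand), the deepest fall, has neither motif in its window. Mael (chr1:166238695-166238994, minus strand) has 1 E-box, Tex14 (chr11:87404815-87405114, plus strand) has 1 E2F core on the opposite strand, and Sycp3 (chr10:88459337-88459636, plus strand) has 2 E-boxes and 1 E2F core; all of these fell. Cpeb1 (chr7:81454709-81455008, minus strand), the largest rise, has 1 E-box, and Ddx4 (chr13:112652261-112652560, minus strand), which did not pass, has 1 of each.
Stra8: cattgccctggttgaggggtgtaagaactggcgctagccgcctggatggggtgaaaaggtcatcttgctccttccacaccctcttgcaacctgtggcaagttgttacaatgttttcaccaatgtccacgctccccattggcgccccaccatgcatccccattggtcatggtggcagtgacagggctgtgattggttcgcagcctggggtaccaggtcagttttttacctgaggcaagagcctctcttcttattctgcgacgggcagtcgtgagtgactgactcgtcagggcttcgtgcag
Mael: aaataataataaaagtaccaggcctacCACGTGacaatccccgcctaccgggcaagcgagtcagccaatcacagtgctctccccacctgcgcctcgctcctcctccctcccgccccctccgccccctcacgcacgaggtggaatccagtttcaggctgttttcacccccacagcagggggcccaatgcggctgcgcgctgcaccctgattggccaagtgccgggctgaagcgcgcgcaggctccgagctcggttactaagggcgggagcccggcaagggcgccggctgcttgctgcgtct
Tex14: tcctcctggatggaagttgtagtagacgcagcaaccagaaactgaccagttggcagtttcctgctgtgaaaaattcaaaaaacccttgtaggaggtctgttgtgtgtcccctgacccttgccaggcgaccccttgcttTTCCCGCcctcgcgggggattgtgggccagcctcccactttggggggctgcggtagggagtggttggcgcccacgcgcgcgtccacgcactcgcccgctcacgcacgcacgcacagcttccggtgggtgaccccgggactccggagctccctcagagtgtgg
Sycp3: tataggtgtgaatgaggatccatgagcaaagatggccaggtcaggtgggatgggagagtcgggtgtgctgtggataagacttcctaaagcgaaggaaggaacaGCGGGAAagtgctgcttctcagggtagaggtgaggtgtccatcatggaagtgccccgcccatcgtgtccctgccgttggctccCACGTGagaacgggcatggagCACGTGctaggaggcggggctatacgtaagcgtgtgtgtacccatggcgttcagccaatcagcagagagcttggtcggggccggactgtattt
Cpeb1: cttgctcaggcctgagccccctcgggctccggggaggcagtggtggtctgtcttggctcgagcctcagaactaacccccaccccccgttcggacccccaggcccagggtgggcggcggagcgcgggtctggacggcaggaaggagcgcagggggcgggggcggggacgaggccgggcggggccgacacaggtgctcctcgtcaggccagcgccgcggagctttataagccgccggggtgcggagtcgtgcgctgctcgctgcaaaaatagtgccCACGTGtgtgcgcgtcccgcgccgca
Ddx4: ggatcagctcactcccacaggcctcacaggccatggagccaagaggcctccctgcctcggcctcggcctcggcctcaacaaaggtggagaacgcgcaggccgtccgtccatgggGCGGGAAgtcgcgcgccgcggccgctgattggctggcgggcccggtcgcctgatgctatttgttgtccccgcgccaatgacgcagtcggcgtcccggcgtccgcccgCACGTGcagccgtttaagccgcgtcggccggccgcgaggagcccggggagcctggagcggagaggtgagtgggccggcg

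Genes of the piRNA pathway split into 3 that fell and 10 that did not pass, with 0 rises among 13 measured. Thus 23.1% were lower and 0% higher, against 12.7% and 14.2% of all genes, and the median change was 0.038. Mael, a nuage protein of transposon silencing, read 6.37 and 6.49 in KAP_KO samples, against 8.04 and 8.59 in KAP_WT samples. It fell by 1.89 (SE 0.18, adjusted p = 5.93e-04), which left 27.0% of the KAP_WT level, and both KAP_KO values lay below both KAP_WT values. Piwil4, the nuclear Piwi protein of fetal male germ cells, which guides DNA methylation to transposons, read 3.97 and 3.76 in KAP_KO samples, against 5.35 and 5.09 in KAP_WT samples. It fell by 1.35 (SE 0.13, adjusted p = 5.96e-04), to 39.2% of the KAP_WT level. Piwil1, the Piwi protein of meiotic and later male germ cells, had a smaller fall of 0.47 (SE 0.095, adjusted p = 0.0119). Its values were 3.83 and 3.75 in KAP_KO samples, against 4.21 and 4.32 in KAP_WT samples. KAP_KO values of Piwil4 and Piwil1 lay near the lower quartile of tested genes, 3.80, so the levels left are uncertain.

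The remaining Piwi paralog did not follow them. Piwil2, which acts with piRNAs from fetal germ cells onward, read 6.40 and 6.42 in KAP_KO samples, against 6.01 and 6.25 in KAP_WT samples (change 0.28, adjusted p = 0.109). Thus the groups did not overlap, yet the change did not pass. Ddx4, the germ-cell RNA helicase also called Vasa, behaved alike, at 7.00 and 7.11 in KAP_KO samples, against 6.77 and 6.83 in KAP_WT samples (change 0.25, adjusted p = 0.0972). Stk31, a Tudor-domain kinase-like protein, had a change of 0.39 (adjusted p = 0.106), and Gpat2, an acyltransferase-related piRNA factor, one of 0.17. The Tudor scaffold genes Tdrd1 (-0.042), Tdrd6 (0.077) and Tdrd9 (-0.038), the helicase gene Mov10l1 (-0.13), the nuage gene Asz1 (0.038) and Tex15 (0.040), which acts with Piwil4 in mice, all had adjusted p of 0.443 or more. Asz1, Tdrd6 and Stk31 had a mean below the lower quartile of tested genes, 3.80, where the array may not measure a transcript.

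Among genes of meiotic chromosomes 4 fell and 2 rose of 13 measured, with a median change of -0.095. These are 30.8% lower and 15.4% higher, against 12.7% and 14.2% of all genes. Without KAP_WT replicate 2 the counts were 0 and 0, and without KAP_WT replicate 1 they were 1 and 0. With all arrays the falls were of similar size and each below 2-fold. Dmc1, the meiotic recombinase, read 6.51 and 6.28 in KAP_KO samples, against 7.00 and 7.10 in KAP_WT samples (change -0.65, SE 0.11, adjusted p = 0.00624). Sycp3, an axial element protein of the synaptonemal complex, read 4.02 and 3.64 in KAP_KO samples, against 4.71 and 4.34 in KAP_WT samples (change -0.70, SE 0.17, adjusted p = 0.0235). Its replicates lay 0.38 apart in KAP_KO and 0.36 apart in KAP_WT, and the groups did not overlap. The KAP_KO values of Sycp3 lay on either side of the lower quartile of tested genes, 3.80, so the level left is uncertain. Stag3, a meiotic cohesin subunit, read 6.67 and 6.32 in KAP_KO samples, against 7.04 and 7.21 in KAP_WT samples (change -0.62, adjusted p = 0.0166). Syce1, of the central element, read 4.91 and 5.15 in KAP_KO samples, against 5.60 and 5.59 in KAP_WT samples (change -0.57, adjusted p = 0.0101).

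Rec8 and Spo11 went the other way. Rec8, the meiotic kleisin that pairs with Stag3 in cohesin, read 6.39 and 5.90 in KAP_KO samples, against 5.30 and 5.41 in KAP_WT samples (change 0.79, SE 0.16, adjusted p = 0.0128). Spo11, which makes the DNA breaks of meiosis, read 3.24 and 3.38 in KAP_KO samples, against 2.98 and 2.90 in KAP_WT samples (change 0.36, adjusted p = 0.0340). All of its values lay below the lower quartile of tested genes. The 2 cohesin partners thus changed in opposite directions, while Smc1b, the third meiotic cohesin gene of the panel, had a change of 0.021 (adjusted p = 0.942). Hormad1, of the unsynapsed axis, had a change of 0.28 (adjusted p = 0.0999) on its brighter probe set and 0.092 on its other. Sycp1, Sycp2, Hormad2, Tex11 and Mei1 had changes of -0.22 to 0.066 and did not pass.

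Germ-cell regulators held both the deepest fall and the largest rise of the panel. Of 10 measured, 2 fell and 2 rose (20.0% each way, against 12.7% lower and 14.2% higher of all genes). Their median change was -0.053. Stra8, the retinoic acid-induced gene needed for entry into meiosis, read 4.05 and 3.90 in KAP_KO samples, against 6.19 and 6.33 in KAP_WT samples. It fell by 2.28 (SE 0.10, adjusted p = 5.75e-05), to 20.5% of the KAP_WT level (95% confidence interval 17.3 to 24.4%). Its KAP_KO values lay near the lower quartile of tested genes, 3.80, so the level left is uncertain. Its replicates lay 0.15 apart in KAP_KO and 0.14 apart in KAP_WT, less than the gap between the groups. Cpeb1, an RNA-binding protein that controls polyadenylation of stored messages in oocytes and also acts in neurons, read 5.72 and 6.10 in KAP_KO samples, against 4.81 and 4.89 in KAP_WT samples. It rose by 1.06 (SE 0.14, adjusted p = 0.00210), a 2.08-fold higher level.

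The other regulators moved little. Dazl, an RNA-binding protein of germ-cell commitment, read 5.09 and 5.15 in KAP_KO samples, against 4.71 and 4.77 in KAP_WT samples (change 0.38, adjusted p = 0.0230). Sohlh1, a bHLH factor of spermatogonia and oocytes, read 4.19 and 4.22 in KAP_KO samples, against 4.49 and 4.60 in KAP_WT samples (change -0.34, adjusted p = 0.0360). Each had groups that did not overlap, and each lost its call with any 1 of the 4 arrays left out. Sohlh2, the partner of Sohlh1, had a change of 0.064 (adjusted p = 0.843), with KAP_KO values of 5.80 and 5.20 that lay on either side of the KAP_WT values. Dmrtb1, a factor of the mitosis to meiosis switch in the testis, had a change of -0.42 (adjusted p = 0.0578), and Nanos3, which protects primordial germ cells, one of 0.42 (adjusted p = 0.122). Nanos2, Brdt and Taf7l had changes of -0.093, -0.077 and -0.029.

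Of the 8 other germ-cell genes 2 fell and 0 rose (25% lower, against 12.7% of all genes, median change -0.077). Tex14, needed for the bridges that join dividing germ cells, read 5.69 and 5.50 in KAP_KO samples, against 6.72 and 6.71 in KAP_WT samples (change -1.12, SE 0.10, adjusted p = 5.05e-04). Tex19.1, which restrains retrotransposons in germ cells and placenta, read 6.11 and 5.64 in KAP_KO samples, against 6.75 and 7.02 in KAP_WT samples (change -1.01, SE 0.17, adjusted p = 0.00628). Its paralog and neighbour Tex19.2 had a change of -0.25 (adjusted p = 0.126), with groups that did not overlap. Rpl10l, the testis copy of a ribosomal protein gene, had a change of -0.17, and Tex101, Slc25a31, Tuba3a and Tuba3b had changes of 0.013 to 0.28. Tuba3a and Tuba3b are near-identical copies, yet their probe sets read far apart. Means in KAP_KO and KAP_WT were 6.49 and 6.38 for Tuba3a, against 2.80 and 2.75 for Tuba3b, below the lower quartile of tested genes. Signal on the Tuba3a probe set may still come from either gene, and Rpl10l resembles the ubiquitous gene Rpl10.

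**Figure D2:**
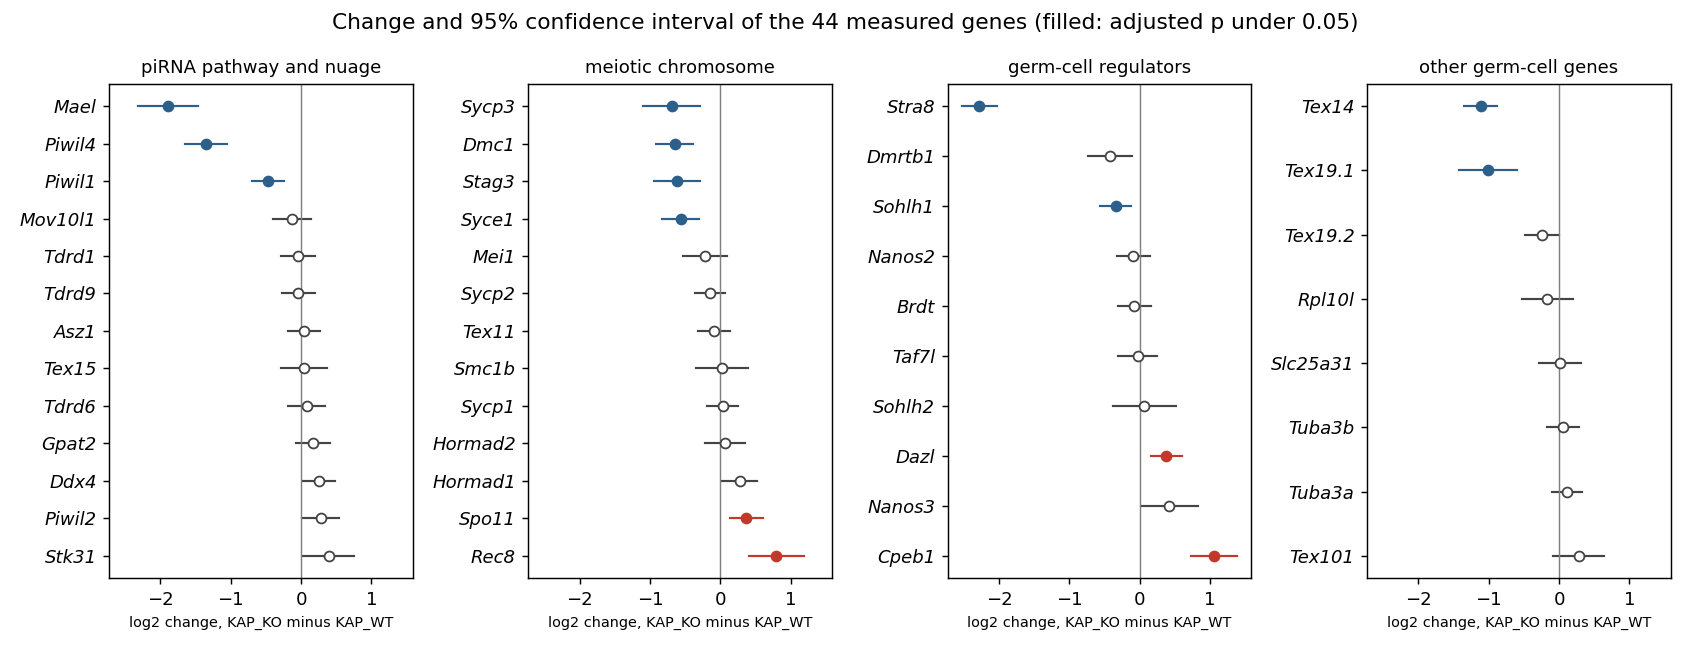
Change in log2 expression (KAP_KO minus KAP_WT, x axis) with its 95% confidence interval for the 44 measured germline genes, in 4 panels by role; filled points passed the test, blue lower and red higher. Most genes sit near 0, and Stra8, Mael, Piwil4, Tex14 and Tex19.1 lie at or below -1.

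Many of the smaller calls did not hold with an array left out. Such a fit leaves 1 array in a group and has less power, so a lost call does not show that an array decided it. With each array left out in turn, 5 of the 15 genes passed all 4 times: Stra8 (changes of -2.36 to -2.21), Mael (-2.17 to -1.61), Piwil4 (-1.48 to -1.22), Tex14 (-1.21 to -1.03) and Cpeb1 (0.86 to 1.25). These 5 also passed under each other alternative in which they were tested. The other 10 kept their direction and lost the call without at least 1 array. Without KAP_WT replicate 2, 4 genes fell and 1 rose; without KAP_WT replicate 1, 7 fell and 1 rose; without KAP_KO replicate 2, 7 fell and 3 rose. Over all genes, 2430 passed without KAP_WT replicate 2 and 2647 without KAP_WT replicate 1, against 5071 with all arrays.

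**Figure D3:**
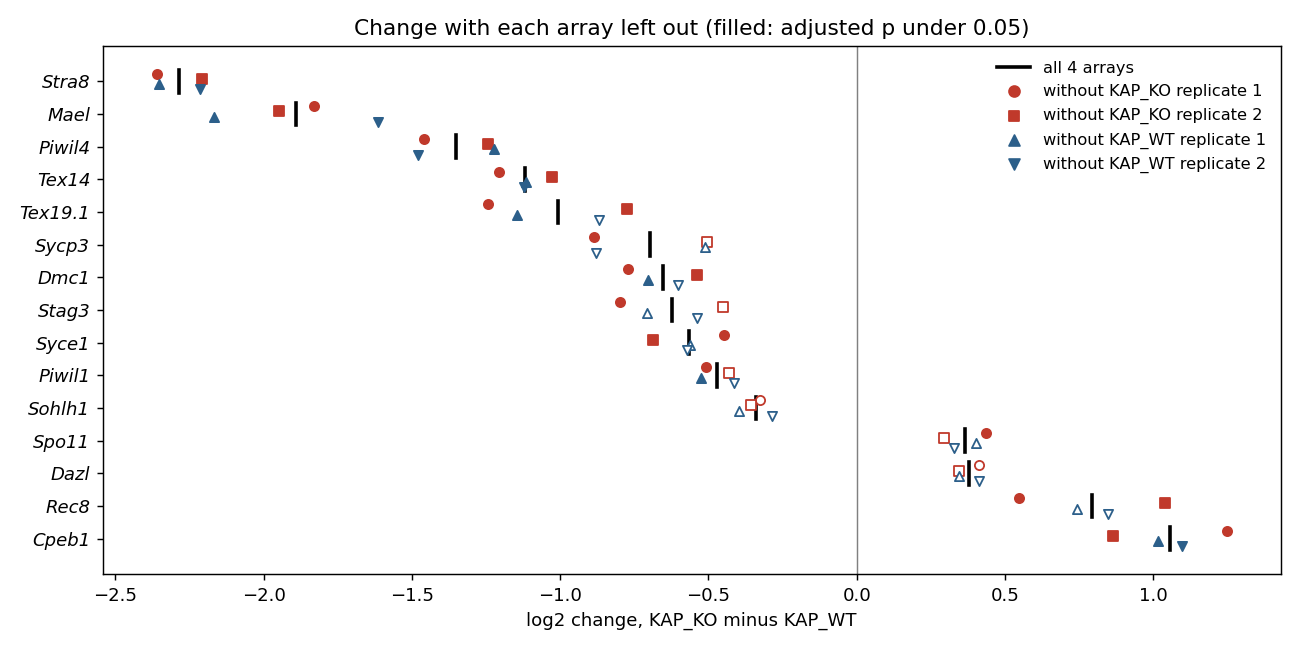
Change in log2 expression (KAP_KO minus KAP_WT) of the 15 germline genes with all 4 arrays (black bar) and with each array left out (symbols); filled symbols passed an adjusted p of 0.05 in that fit. Stra8, Mael, Piwil4, Tex14 and Cpeb1 are filled throughout, and no symbol crosses 0.

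Some of the changed genes lie where neighbouring genes changed as well; over all genes tested, 12.7% fell and 14.2% rose. Of the 50 tested genes nearest Mael on chromosome 1 (25 on each side), 15 fell and 1 rose, and the nearest genes before it, Gpa33 and Dusp27, also fell (-2.64 and -2.60). Ildr2, the next gene after it, had a change of 0.21 and did not pass. Around Rec8 on chromosome 14, 18 of 50 genes rose and 0 fell, among them the adjacent Irf9 (0.46), an interferon signalling factor, and Psme2 (2.41) and Psme1 (1.35), of the interferon-inducible proteasome activator. Around Piwil2, on the same chromosome, 25 of 50 rose and 1 fell, with a median change of 0.42, while Piwil2 itself did not pass. Around Stra8 on chromosome 6, 10 rose and 5 fell, with a median change of -0.076, so its fall was not shared by most of its neighbours. The neighbours of Piwil4 (median -0.0052, with 12 rises and 3 falls) and of Tex14 (median -0.0068, with 7 rises and 10 falls) were likewise near 0. Of 50 neighbours each, 13 fell and 0 rose around Syce1, and 13 fell and 7 rose around Dmc1. Cpeb1 rose among 50 neighbours of which 7 rose and 12 fell (median -0.10).

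**Figure D4:**
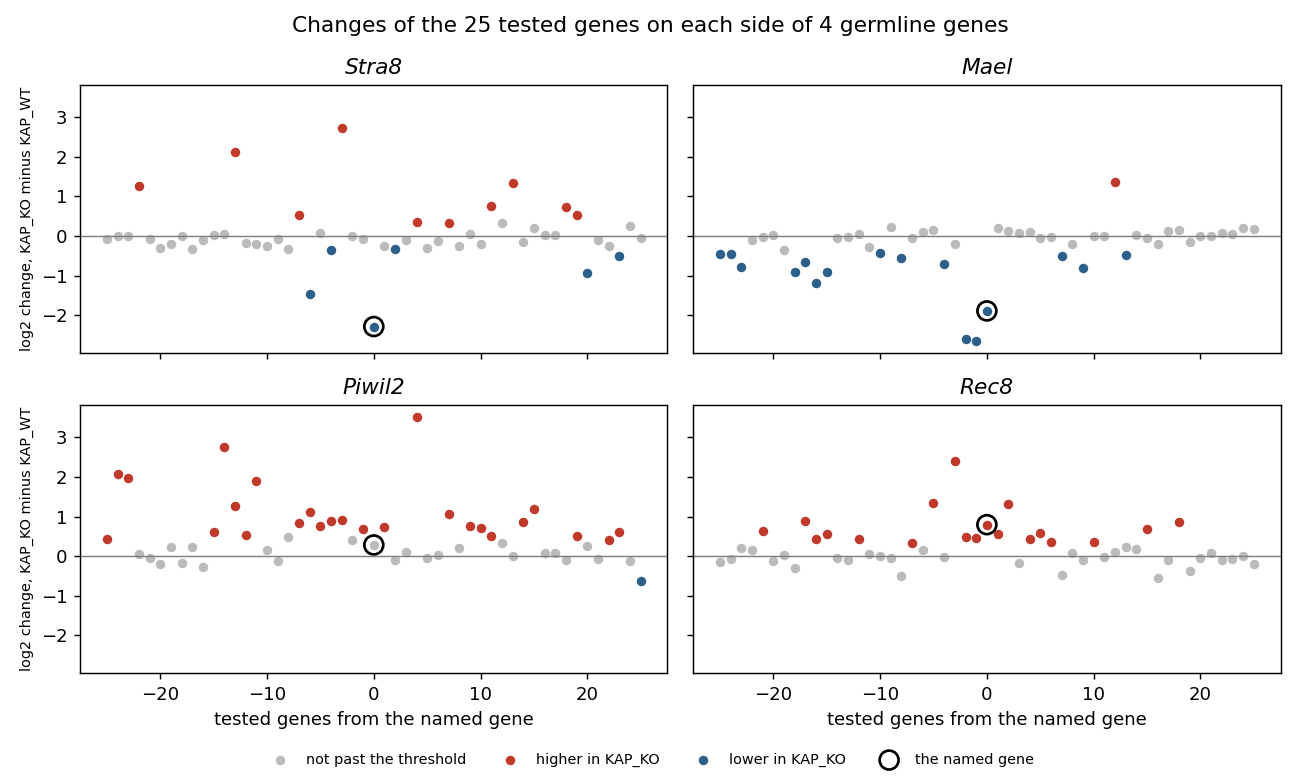
Change in log2 expression (KAP_KO minus KAP_WT) of the 25 tested genes on each side of Stra8, Mael, Piwil2 and Rec8 in chromosomal order, with the named gene circled at place 0; red genes rose, blue fell and grey did not pass. Next to Mael stand 2 genes with deeper falls, and around Piwil2 and Rec8 the called genes are nearly all red.

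Further germline genes, on a list separate from the panel, did not show more calls than the background. Of 44 measured out of 52, 5 rose and 6 fell (25% called, against 26.9% of all genes, with a median change of -0.12). At a change of at least 2-fold, 3 fell (6.82%, against 1.46% of all genes) and 0 rose (against 4.44%). Dmrt1, a sex-determination and germ-cell factor, read 6.81 and 6.72 in KAP_KO samples, against 8.73 and 8.87 in KAP_WT samples (change -2.04, adjusted p = 6.64e-05). Prdm14, which specifies primordial germ cells and also acts in naive stem cells, fell by 1.88. Spata22, of meiotic recombination, fell by 1.44. Tdrd7, a Tudor gene, rose by 0.89. Chosen after their values were seen, Tdrd5 (0.86) and Tdrkh (0.69), which act in the same pathway, rose as well, while Tdrd12 (0.35, adjusted p = 0.150) did not pass, and Tfap2c, another germ-cell specification factor, fell by 0.81. With array medians subtracted, 3 of this list rose and 19 fell (43.2% lower, against 34.0% of all genes). Of 13 markers of late germ cells (spermatids and oocytes) 0 rose and 1 fell, Gdf9 (-0.40). Its call was lost without KAP_KO replicate 2 and without either KAP_WT replicate. The list had mean levels of 3.63 and 3.61 in KAP_KO samples, against 3.72 and 3.69 in KAP_WT samples. Of the 13, 7 had a mean below the lower quartile of tested genes, where the array may not measure a transcript.

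The retinoic acid pathway, which induces Stra8 in germ cells, went both ways. Of 18 measured genes 6 rose and 4 fell (33.3% and 22.2%, against 14.2% and 12.7% of all genes; median change 0.20). With array medians subtracted 4 rose and 5 fell (27.8% lower, against 34.0% of all genes), and without KAP_WT replicate 1 the counts were 2 and 2. Cyp26a1, which degrades retinoic acid and is induced by it, read 5.18 and 5.72 in KAP_KO samples, against 4.03 and 4.07 in KAP_WT samples (change 1.40, adjusted p = 0.00158). The receptor gene Rxrg rose by 1.36 and the retinol uptake gene Stra6 by 1.13, while the binding protein gene Crabp1 fell by 0.88. Crabp2 (0.72), Rdh10 (0.60) and Aldh1a2 (0.42) rose as well. The receptor genes Rarg (-0.77), Rara (-0.47) and Rarb (-0.37), the last of them induced by retinoic acid, fell, and Cyp26b1 (0.064) and Cyp26c1 (0.0082) did not pass. The calls of Stra6 and Crabp2 were lost without KAP_WT replicate 1, and that of Rara without either KAP_WT replicate. Those of Rdh10 and Aldh1a2 were lost without KAP_KO replicate 2, without either KAP_WT replicate and with array medians subtracted. Rarb lost its call with any 1 of the 4 arrays left out.

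Repressors known to act on germline promoters were read in the same samples, on a list that also holds Tet1 and Tet2, which act in the removal of DNA methylation. Of 26 measured genes of the variant Polycomb complex, DNA methylation and its removal, and H3K9 methylation, 2 rose and 7 fell (7.69% and 26.9%, against 14.2% and 12.7% of all genes; median change -0.16). With array medians subtracted 2 rose and 18 fell (69.2% lower, against 34.0% of all genes). The falls numbered 1 without KAP_WT replicate 1 and 2 without KAP_WT replicate 2 or without KAP_KO replicate 2. Within the Polycomb group Rnf2 fell by 0.58 (adjusted p = 0.00560), Pcgf6 by 0.44 (adjusted p = 0.0167) and Max by 0.35, and Yaf2 rose by 0.74. E2f6 (0.26), Mga (-0.12) and L3mbtl2 (-0.24) did not pass. Dnmt3b, a de novo DNA methyltransferase, rose by 0.52 (adjusted p = 0.0180), while Dnmt1 (-0.15), Dnmt3a (0.27), Dnmt3l (-0.30) and the H3K9 methyltransferase gene Setdb1 (-0.21) did not pass. Tet2, which oxidises 5-methylcytosine, fell by 1.89 (adjusted p = 1.27e-04), as did its paralog Tet1 (-0.45), the H3K9 methyltransferase gene Ehmt2 (-0.37) and Uhrf1 (-0.36), which guides Dnmt1 to newly copied DNA. The calls of Tet1, Ehmt2 and Uhrf1 were lost without KAP_KO replicate 2 and without either KAP_WT replicate. The call of Rnf2 was lost only without KAP_WT replicate 1. That of Dnmt3b was lost without KAP_KO replicate 2 and without KAP_WT replicate 1, and that of Pcgf6 also without KAP_WT replicate 2. Max lost its call with any array left out, with the replicate number as a block and after quantile normalization once more.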

How the data were processed

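Total RNA of 2 KAP_KO and 2 KAP_WT samples, grouped and numbered by their titles, was reverse transcribed from 250 ng and hybridised to Affymetrix arrays (Mouse Gene ST), according to the protocols in the labels. The deposited log2 values come from the tools affy and RMA, as the submitters' processing notes name them; versions and settings are not given in the sources used here. RMA compresses differences among dim probe sets, and signal over background is unknown here. Values spanned 1.45 to 12.9.

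Of 35556 probe sets, 21218 had 1 gene symbol in the platform annotation, 1881 had several and 12457 had none; 21185 of the 21218 matched a gene of GRCm38.p6. The probe set with the highest mean was kept per gene (1386 genes had several), which left 18820 genes, with no filter. KAP_KO was compared with KAP_WT by limma 3.58.1 in R 4.3.3 (lmFit, eBayes; 2 residual and 4.70 prior degrees of freedom), two-sided, with Benjamini-Hochberg adjustment over all genes at 0.05. The fit was tested on simulated data. The members, roles, lists and tests were chosen with earlier results of these data known. The rule for naming allowed every member, up to 4 called genes with the largest change in each further list, and Trim28 with the main germline repressors. Tdrd5, Tdrkh, Tdrd12, Tfap2c, Max, Tet1, Ehmt2, Uhrf1, further retinoic acid genes and the named neighbours of Mael and Rec8 were picked from their values. The p-values measure the spread between these samples only, since the labels do not describe separate cultures beyond the word biological. The number of arrays limits the precision. Promoter sequences are from RefSeq, and array annotation has no stated build, so gene order alone was taken from GRCm38.p6. Figures were drawn with matplotlib 3.10.9.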

Additional observations from a re-analysis of the deposited data

How the results depend on the processing

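Of 15 alternatives, 5 changed the count of calls over all genes or the counts among germline genes by more than 1.5 times. Subtraction of each array's median over tested genes moved every change by -0.17, with 8457 genes past the threshold over all genes, and 2 germline genes higher (Cpeb1 and Rec8) and 15 lower (34.1%, against 34.0% of all genes, 6392 of 18820). The median change over all genes tested was then -0.22, against -0.053 as deposited. At a change of at least 2-fold, 1109 genes passed, with 1 germline gene higher and 5 lower. With each sample left out in turn, 2430 to 4350 genes passed, with 1 to 5 germline genes higher and 4 to 10 lower. With the replicate number as a block, 5093 genes passed, with 5 germline genes higher (Nanos3 added) and 12 lower (Dmrtb1 added); deviations of same-numbered samples correlated at 0.145 over genes, and nothing in the labels says that the numbers pair the samples. Trim28 kept its direction and call throughout.

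No germline gene that passed turned its direction. Of genes that did not pass, those that changed sign with array medians subtracted were Asz1 (-0.13), Tdrd6 (-0.092), Tex15 (-0.13), Sycp1 (-0.14), Hormad2 (-0.10), Smc1b (-0.15), Sohlh2 (-0.11), Slc25a31 (-0.16), Tuba3a (-0.055) and Tuba3b (-0.12). After quantile normalization once more they were Tdrd9 (0.018), Tex15 (-0.029), Sohlh2 (-0.019) and Taf7l (0.027). With samples left out, the changes ranged from -0.022 to 0.097 for Asz1, -0.13 to 0.048 for Tdrd1, -0.025 to 0.18 for Tdrd6, -0.12 to 0.040 for Tdrd9, -0.10 to 0.18 for Tex15, -0.023 to 0.081 for Sycp1, -0.062 to 0.19 for Hormad2, -0.21 to 0.25 for Smc1b, -0.24 to 0.37 for Sohlh2, -0.17 to 0.11 for Taf7l, -0.10 to 0.13 for Slc25a31, -0.34 to 0.0039 for Rpl10l and -0.0023 to 0.11 for Tuba3b. The causes were not tested. Of the 15 calls among germline genes, 10 were lost with at least 1 of the 4 arrays left out. By level, 11 of the 44 measured genes had a mean below the lower quartile of tested genes, and leaving such genes out removed 1 call, that of Spo11.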
